A study of Mus musculus with 8 samples.

Results

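Aggrecan and 7 other non-collagen matrix genes of cartilage were followed through 4 lists of peaks, called on libraries labelled H3K27me3, from mouse chondrocytes, the cells that make and maintain cartilage. The 8 genes, Acan, Hapln1, Comp, Matn1, Matn3, Chad, Fmod and Prg4, were taken by name and located in the GRCm38.p6 annotation among 21887 protein-coding genes. A peak was assigned to a gene when it overlapped the gene span, or the 5 kb on either side of it, by at least 1 bp. The chondrocytes came from cartilage, were grown in culture, and were labelled Ezh2-cKO, Utx-cKO, Jmjd3-cKO or wild type (WT), cKO standing for a conditional knockout of the named gene. The sources used here do not give the driver of the deletion, the strain, the age or the number of animals. Each genotype had 1 immunoprecipitated (ChIP) library and 1 input library, so no difference between genotypes has a replicate check and no p-value is given.

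H3K27me3, histone H3 trimethylated at lysine 27, is written by Polycomb repressive complex 2, whose catalytic subunit is usually Ezh2. Utx and Jmjd3, also named Kdm6a and Kdm6b, are the demethylases that remove it. At many developmental genes it is a mark of silent or poised chromatin. The matrix of cartilage combines collagen fibrils with a gel of aggrecan held on hyaluronan, and adaptor proteins join the 2 networks. Peaks are described as calls made on libraries with that label and not as evidence that a gene was silent, since expression was not analysed here and a peak does not by itself show which mark was precipitated. In all 4 lists peaks lay over most annotated gene starts, from 55.6% in WT to 61.0% in Utx-cKO, and over 95.4% to 97.2% of starts with 29 to 33 CpG, the class that holds Acan. That goes against the label, since H3K27me3 is known from a minority of starts, mainly those of silent developmental genes, and every value below is to be read with the mark in doubt. Without expression values neither the cell type nor the deletions could be checked on transcripts.

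The ChIP libraries kept 25655346 to 34786292 fragments once duplicates were dropped, and the inputs 16599532 to 24041619. The lists held 33739 peaks over 48.1 Mb in Ezh2-cKO, 49405 over 74.3 Mb in Utx-cKO, 27013 over 41.4 Mb in Jmjd3-cKO and 28057 over 40.5 Mb in WT. Each list has its own threshold and scale, so a peak can enter or leave a list with sequencing depth. Utx-cKO and Jmjd3-cKO share the prefix of their library titles, while WT and Ezh2-cKO each have their own. If the prefix marks a set of libraries made together, that set and the genotype cannot be told apart in any comparison with WT.

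The sequence around the start of 4 genes is shown because peaks lay over or beside these starts in at least 1 list while their CpG content differs widely. Each line runs from 250 bases before to 50 bases after the start, from RefSeq with the GRCm38.p6 build, plus strand, and the capitals mark CpG dinucleotides. Acan is at chr7:79052976-79053275, Hapln1 at chr13:89540386-89540685, Chad at chr11:94564797-94565096 and Fmod at chr1:134037004-134037303.
Acan: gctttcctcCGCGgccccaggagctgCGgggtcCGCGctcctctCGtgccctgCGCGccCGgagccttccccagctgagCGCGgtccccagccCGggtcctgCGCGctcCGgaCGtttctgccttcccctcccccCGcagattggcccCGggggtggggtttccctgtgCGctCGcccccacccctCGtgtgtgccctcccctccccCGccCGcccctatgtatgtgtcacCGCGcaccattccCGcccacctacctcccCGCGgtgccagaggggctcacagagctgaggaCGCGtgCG
Hapln1: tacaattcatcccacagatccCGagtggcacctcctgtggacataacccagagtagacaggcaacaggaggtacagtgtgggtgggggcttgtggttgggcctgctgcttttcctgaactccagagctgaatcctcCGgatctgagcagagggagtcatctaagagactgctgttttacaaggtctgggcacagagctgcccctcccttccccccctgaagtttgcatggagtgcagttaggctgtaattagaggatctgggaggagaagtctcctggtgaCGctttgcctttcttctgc
Chad: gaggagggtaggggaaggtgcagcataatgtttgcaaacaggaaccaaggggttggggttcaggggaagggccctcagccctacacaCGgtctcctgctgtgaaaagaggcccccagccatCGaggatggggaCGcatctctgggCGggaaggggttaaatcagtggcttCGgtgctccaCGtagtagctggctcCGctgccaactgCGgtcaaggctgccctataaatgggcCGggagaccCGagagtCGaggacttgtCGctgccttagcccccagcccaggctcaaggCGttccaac
Fmod: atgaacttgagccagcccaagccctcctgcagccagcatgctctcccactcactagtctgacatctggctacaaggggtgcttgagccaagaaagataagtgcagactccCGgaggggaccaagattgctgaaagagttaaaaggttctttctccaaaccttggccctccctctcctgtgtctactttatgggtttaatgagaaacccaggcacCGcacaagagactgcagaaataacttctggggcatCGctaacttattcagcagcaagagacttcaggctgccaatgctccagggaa

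Start sequences were matched for 6 of the 8 genes: Acan, Hapln1, Matn1, Matn3, Chad and Fmod. Acan had 31 CpG in its window, Matn3 15, Chad 13, Matn1 6, and Hapln1 and Fmod 3 each, against a median of 13 over 21263 starts of 17492 protein-coding genes. Of starts with 1 to 5 CpG, 9.39% lay in an Ezh2-cKO peak, 12.9% in a Utx-cKO peak, 8.01% in a Jmjd3-cKO peak and 7.81% in a WT peak. Hapln1 and Fmod belonged to that class, and both lay in a peak in all 4 lists. Of starts with 29 to 33 CpG, the class of Acan, 95.4% lay in a WT peak. Chad stands on the other side: of starts with 11 to 15 CpG, 82.6% lay in a Utx-cKO peak and 72.6% in a WT peak, and the Chad start lay in a peak in Utx-cKO alone among the 4 lists. A total of 4 short motifs were searched on both strands. The TATA box letters TATAAA were found once, at position -28 of Chad, counted from the start, and 12.6% of all starts held them. GGGCGG, the letters of a GC box, occurred 3 times each at Acan and Matn3 and 1 time each at Matn1 and Chad, with 46.2% of all starts holding it. Matches overlap each other at Matn3, and 2 of the 3 do at Acan. ACAAAG and ACAATG, letters of Sox-type motifs that share their first 4 bases, were found in none of the 6 windows, and in 16.8% and 11.0% of all starts.

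Peaks lay at 7 of the 8 genes in Ezh2-cKO, at 7 in Utx-cKO, at 7 in Jmjd3-cKO and at 6 in WT. The same rule gave a peak to 70.6% of all protein-coding genes in Ezh2-cKO, 73.5% in Utx-cKO, 68.9% in Jmjd3-cKO and 68.7% in WT. With 8 genes, a count of 6 or 7 is near that background, so the presence of a peak does not set the group apart. Acan, Comp, Matn1, Matn3, Hapln1 and Fmod had a peak in every list, Chad in the 3 knockouts and not in WT, and Prg4 in none.

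How much of each gene lay in peaks differed more than presence did. The covered share, the percent of bases of the gene span and its 5 kb flanks that lie in peaks, had a median over the 8 genes of 19.4% in Ezh2-cKO, 28.9% in Utx-cKO, 13.4% in Jmjd3-cKO and 15.2% in WT. Over all protein-coding genes the medians were 3.81%, 5.31%, 3.33% and 3.21% in the same order, and over genes with a peak 7.10%, 9.49%, 6.51% and 6.34%. In WT, each of the 6 genes with a peak lay between percentile 79.3 and 94.0 of all genes by covered share.

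**Figure D1:**
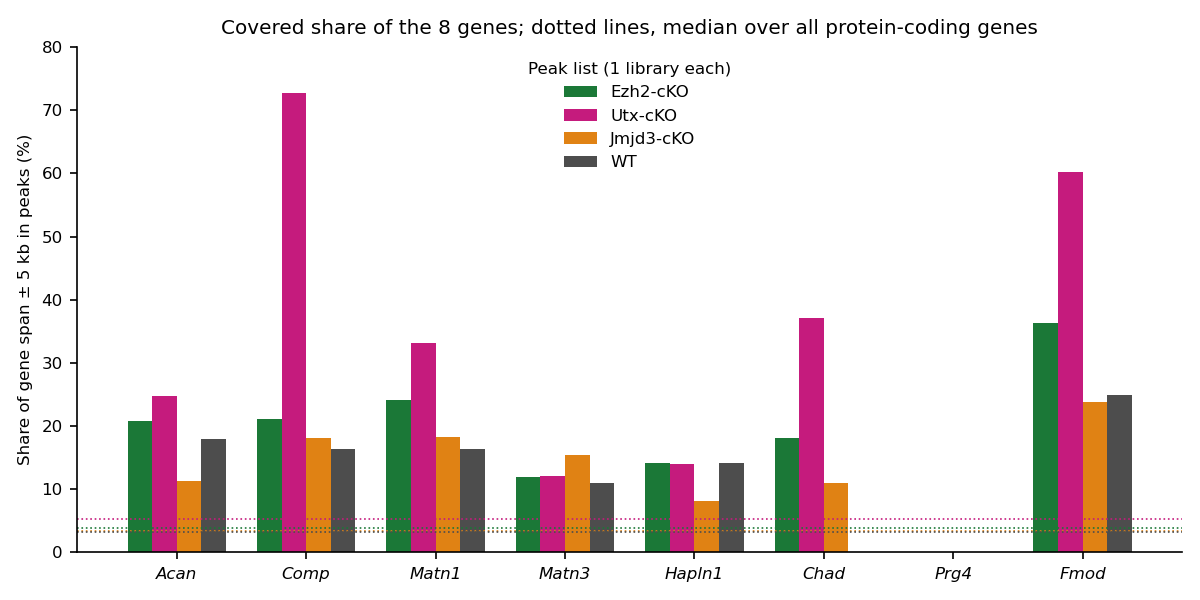
Percent of each gene span and its 5 kb flanks that lies in peaks, for the 8 genes in the 4 lists, 1 library each; dotted lines give the median over all protein-coding genes of the list. Comp and Fmod reach 72.7% and 60.3% in Utx-cKO, Chad has no bar in WT, and Prg4 has none in any list.

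The peaks of the 4 lists joined into 24 separate regions at the 7 genes. Of these, 10 were present in all 4 lists, 1 in the 3 knockouts only, 4 in Utx-cKO alone, 2 in Jmjd3-cKO alone, 1 in Ezh2-cKO alone and 2 in WT alone. The other 4 regions were in 2 lists each. Regions were not counted over all genes, so whether any of these counts is high or low was not tested. Further below, the peaks of each knockout that overlap no WT peak are given for the group and for the whole list. Every gene with a WT peak had at least 1 region common to the 4 lists, and that region lay over or next to the annotated start or, for Comp, the lower-coordinate gene end.

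**Figure D2:**
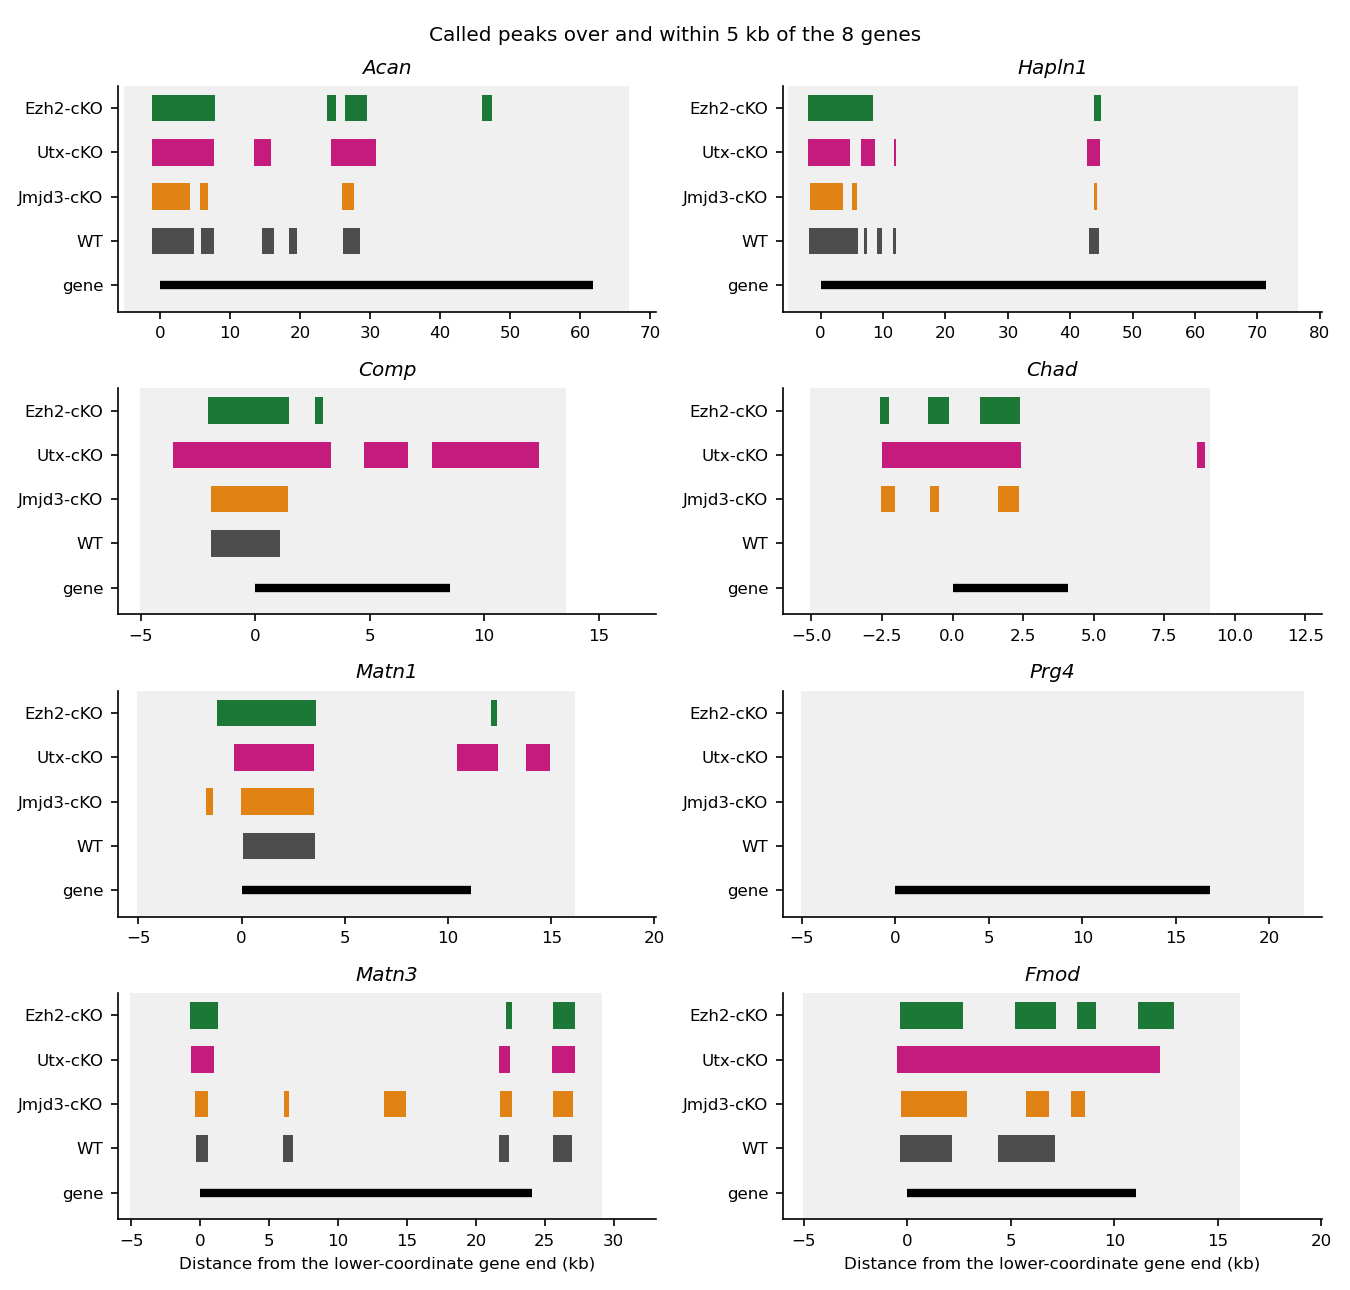
Called peaks at the 8 genes in Ezh2-cKO, Utx-cKO, Jmjd3-cKO and WT, with distance from the lower-coordinate gene end in kb; the black bar is the gene span and the grey field its 5 kb flanks. A block at the left end of the gene is common to all lists at 6 genes, Chad lacks one in WT, and the Utx-cKO blocks at Comp and Fmod run through most or all of the gene.

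Aggrecan and link protein form the hyaluronan-bound aggregate that holds water in cartilage. Acan encodes aggrecan, the large chondroitin sulfate proteoglycan, and spans 61874 bp on chromosome 7 from 79053226 to 79115099. The peak over its start ran from 1131 bp before it to 7895 bp past it in Ezh2-cKO and from 1137 bp before to 7776 bp past in Utx-cKO. It ran from 1148 bp before to 4279 bp past in Jmjd3-cKO, and from 1055 bp before to 4854 bp past in WT. The upstream edge thus moved by under 100 bp among the lists, while the downstream edge lay further into the gene in Ezh2-cKO and Utx-cKO. In Jmjd3-cKO and WT a second peak lay beyond a gap in the same stretch, 1169 bp long in Jmjd3-cKO and 1881 bp in WT, and it ended 6883 bp past the start in Jmjd3-cKO and 7783 bp past it in WT. The outer limits of the stretch were thus closer than the lengths of the single peaks.

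By length the Acan start peak was number 116 of the Ezh2-cKO list, 366 of the Utx-cKO list, 571 of the Jmjd3-cKO list and 385 of the WT list. By fold enrichment, the authors' ratio of the peak over its local input, used only within a list, it was 6.35, 7.65, 6.38 and 6.46 in that order, and number 7981, 8096, 8763 and 6187. A further region in the middle of the gene, about 24 to 31 kb past the start, was covered by 4533 bp of peaks in Ezh2-cKO, 6446 bp in Utx-cKO, 1573 bp in Jmjd3-cKO and 2322 bp in WT. A peak 18.5 to 19.5 kb past the start was in WT alone, with fold enrichment 2.49, and one at 46.0 to 47.4 kb in Ezh2-cKO alone, with 2.67. In all, 20.8% of the Acan window lay in peaks in Ezh2-cKO, 24.7% in Utx-cKO, 11.4% in Jmjd3-cKO and 17.9% in WT. The difference of Jmjd3-cKO from WT was -6.56 points, at percentile 1.52 of the differences of all genes, and did not reach the 10 points used as a call. The Ezh2-cKO difference was 2.86 points, and -0.959 points with equally long lists. That of Utx-cKO was 6.81 points, also short of the call, and 10.5 points, past it, with q of 0.001 or less.

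Hapln1 encodes the link protein that fastens aggrecan to hyaluronan, and spans 71304 bp on chromosome 13 from 89540529 to 89611832. Its start peak was among the longest of the group: 10399 bp in Ezh2-cKO, the 62nd longest of that list, 6610 bp in Utx-cKO, 5314 bp in Jmjd3-cKO and 7834 bp in WT, the 145th longest. Counted from the RefSeq start shown above, which lies slightly inside the annotated span, it began 2113, 2046, 1800 and 1998 bp before and ended 8285, 4563, 3513 and 5835 bp past it in the same order. The downstream edges were again spread more widely than the upstream ones. A region 42.6 to 44.9 kb from the lower gene end was in all 4 lists, with 1161 bp in Ezh2-cKO, 2189 bp in Utx-cKO, 504 bp in Jmjd3-cKO and 1626 bp in WT.

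The covered share of Hapln1 was 14.2% in Ezh2-cKO, 14.0% in Utx-cKO, 8.17% in Jmjd3-cKO and 14.1% in WT. The Ezh2-cKO and Utx-cKO values were thus within 1 point of WT. The Jmjd3-cKO difference was -5.95 points, at percentile 1.91 of all genes. Acan and Hapln1 were the 2 genes with a Jmjd3-cKO share 5 or more points below WT, and none of the 8 was lower by 10 points in any knockout. The share of all genes lower by 5 points was not counted. The Jmjd3-cKO ChIP library was also the shallowest of the 4, and the part of depth in these shares was not tested.

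Comp and the matrilins are adaptors that link collagen fibrils to other matrix components. Comp encodes cartilage oligomeric matrix protein, of the thrombospondin family, and spans 8519 bp on chromosome 8 from 70373548 to 70382066. Its main peak covered the lower-coordinate end of the gene, where the lncRNA gene Gm51533 overlaps it, so the peak cannot be given to Comp alone. That peak was 3570 bp in Ezh2-cKO, 6885 bp in Utx-cKO, 3351 bp in Jmjd3-cKO and 3031 bp in WT. Utx-cKO had 2 further peaks, of 1902 and 4680 bp, which no other list had. The larger crossed the far end of Comp into the neighbouring gene Crtc1.

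The covered share of Comp was 21.1% in Ezh2-cKO, 72.7% in Utx-cKO, 18.1% in Jmjd3-cKO and 16.4% in WT. The Utx-cKO value stood 56.4 points above WT, at percentile 99.9 of the differences of all genes, and the other knockouts within 5 points of WT. The added Utx-cKO peaks were weak, with fold enrichment 2.59 and 2.73 and numbers 42909 and 35872 of 49405. With every list limited to its 27013 strongest peaks by q, they dropped out and the difference was 20.8 points.

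Matn1 encodes matrilin-1, a filament-forming adaptor of cartilage, on chromosome 4 from 130944385 to 130955476. Its main peak was 4792 bp in Ezh2-cKO, 3836 bp in Utx-cKO, 3523 bp in Jmjd3-cKO and 3451 bp in WT. The downstream edge lay 3581, 3491, 3505 and 3541 bp past the lower gene end, a spread under 100 bp. The upstream edge set the lists apart. It lay 1210 bp before the start in Ezh2-cKO, 344 bp before in Utx-cKO and 17 bp before in Jmjd3-cKO, and in WT the peak began 91 bp past the start. Fold enrichment was 4.60 in Ezh2-cKO, 4.40 in Utx-cKO, 2.71 in Jmjd3-cKO and 2.78 in WT, and the peak was number 11183, 13254, 22540 and 20128 of its list. Within its own list, the peak was in the upper 33.1% in Ezh2-cKO, 26.8% in Utx-cKO, 83.4% in Jmjd3-cKO and 71.7% in WT by fold enrichment. By q it was in the upper 33.0%, 27.0%, 77.0% and 55.9% in the same order. The lists differ in length and scale, so these positions are not compared between lists. Near the far end of the gene Utx-cKO had 2 more peaks, 1 of them overlapping a 297 bp peak of Ezh2-cKO, and the covered share was 24.1% in Ezh2-cKO, 33.2% in Utx-cKO, 18.3% in Jmjd3-cKO and 16.4% in WT. The Utx-cKO difference of 16.8 points was 1.83 with equally long lists or with q of 0.001 or less, and 6.31 with the gene span alone.

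Matn3 encodes matrilin-3, which forms oligomers with matrilin-1, on chromosome 12 from 8947929 to 8972028. Its start peak was the shortest among the start peaks of the group, 2030 bp in Ezh2-cKO, 1662 bp in Utx-cKO, 955 bp in Jmjd3-cKO and 866 bp in WT. Both edges lay further from the start in Ezh2-cKO and Utx-cKO, at 737 and 647 bp before it against 408 bp in Jmjd3-cKO and 326 bp in WT. The strongest peak in the window lay past the far end of the gene, over the neighbouring gene end of Wdr35, with fold enrichment 5.19 in Ezh2-cKO, 6.58 in Utx-cKO, 5.20 in Jmjd3-cKO and 6.75 in WT. It cannot be given to Matn3, yet it lies within 5 kb of the gene and is included in the whole-window shares and the counts of peaks and regions. The gene span alone was 7.27% covered in Ezh2-cKO, 7.27% in Utx-cKO, 13.9% in Jmjd3-cKO and 8.29% in WT. Over the whole window Ezh2-cKO and Utx-cKO differed from WT by 0.959 and 1.05 points, and Jmjd3-cKO by 4.37 points. Jmjd3-cKO alone had a 1640 bp peak 13.3 to 15.0 kb past the start, with fold enrichment 2.53.

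Chad and Fmod encode leucine-rich repeat proteins that bind collagen. Chad, the gene of chondroadherin, which also binds cells through integrins, spans 4081 bp on chromosome 11 from 94565047 to 94569127 and lies inside the span of Acsf2, so its peaks may be assigned to either gene. Ezh2-cKO had 3 peaks at Chad, of 332, 766 and 1444 bp, Utx-cKO had a peak of 4931 bp and one of 284 bp, Jmjd3-cKO had 3 peaks, of 507, 305 and 740 bp, and WT had none. The 3 peaks of Ezh2-cKO and the 3 of Jmjd3-cKO all overlapped the stretch that the long Utx-cKO peak covered. The covered share was 18.1% in Ezh2-cKO, 37.0% in Utx-cKO, 11.0% in Jmjd3-cKO and 0 in WT, where the nearest peak outside the window lay 14678 bp from the gene, at Rsad1.

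The Chad peaks were faint in each knockout list. The strongest in Ezh2-cKO had fold enrichment 2.75 and was number 21401 of 33739. In Utx-cKO it had 2.96, as number 26502 of 49405, and in Jmjd3-cKO 2.70, as number 22700 of 27013. At q of 0.001 or less no Chad peak remained in Ezh2-cKO or Utx-cKO, and 2.17% of the window remained in Jmjd3-cKO. With equally long lists the gene had a covered share of 12.6% in Ezh2-cKO, 0 in Utx-cKO, 11.0% in Jmjd3-cKO and 0 in WT. Genes with a peak in the 3 knockouts and none in WT numbered 267, or 1.22% of all. Against WT alone, 3.05% of genes gained a peak and 1.12% lost theirs in Ezh2-cKO. The shares were 5.30% and 0.507% in Utx-cKO and 2.0% and 1.77% in Jmjd3-cKO. Of the 8 genes, Chad gained a peak in each knockout and none lost one. Among 50 related cartilage genes Ncan, which encodes neurocan, was the one with the same pattern, with covered shares of 1.22% in Ezh2-cKO, 2.17% in Utx-cKO, 0.956% in Jmjd3-cKO and 0 in WT.

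Fmod encodes fibromodulin, a small proteoglycan that regulates collagen fibril assembly, and spans 11027 bp on chromosome 1 from 134037254 to 134048280. Utx-cKO had a single peak of 12677 bp that covered 100% of the gene span and was the 111th longest of that list. Ezh2-cKO had 4 separate peaks, of 3074, 1953, 895 and 1705 bp, in the same stretch, Jmjd3-cKO had 3, of 3168, 1144 and 698 bp, and WT had 2, of 2489 and 2741 bp. The covered share was 36.3% in Ezh2-cKO, 60.3% in Utx-cKO, 23.8% in Jmjd3-cKO and 24.9% in WT. The Utx-cKO difference of 35.4 points was at percentile 98.3 of all genes and that of 11.4 points in Ezh2-cKO at 97.2, while that of Jmjd3-cKO was -1.05 points. The Ezh2-cKO difference was under 10 points in other settings, at 2.78 with q of 0.001 or less, 6.09 with the gene span alone and 7.73 with a 10 kb window, while that of Utx-cKO was 24.0 or more in every setting run. By fold enrichment the start peak was 5.38 in Ezh2-cKO, 4.44 in Utx-cKO, 2.46 in Jmjd3-cKO and 3.60 in WT. In Jmjd3-cKO it was number 25757 of 27013, and at q of 0.001 or less neither Fmod nor Matn1 had a peak in that list.

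Prg4 encodes lubricin, the boundary lubricant made by cells of the articular surface and the synovium. The gene lies on chromosome 1 from 150449412 to 150466221, and the span of Tpr ends inside it. No list had a peak over it or within 5 kb. The nearest peak lay 54051 bp away in Ezh2-cKO, 53277 bp in Utx-cKO, 54048 bp in Jmjd3-cKO and 30626 bp in WT. In the knockouts that peak lay near Odr4, where Ezh2-cKO had fold enrichment 9.21, Utx-cKO 11.9 and Jmjd3-cKO 9.61. In WT the nearest peak was a 257 bp peak on the other side with 2.67. Only the nearest peak of each list was taken, so whether WT also had a peak near Odr4 is not shown. Genes with no peak in any list made up 25.3% of all, and of the 50 related genes 1 was in that state, Kera, which encodes keratocan, a proteoglycan best known from the cornea. At this depth the lists do not show whether signal was absent from Prg4 or under the threshold.

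Among all start-site peaks of their list, the start peaks of the group stood higher by length than by fold enrichment. The start-site peaks of a list were counted per annotated start, so a peak over several starts was counted for each of them. By length the Acan peak was at percentile 98.9 in Ezh2-cKO, 96.7 in Utx-cKO, 94.5 in Jmjd3-cKO and 96.1 in WT. The Hapln1 peak was at 99.4, 92.7, 94.2 and 98.7 in the same order. By fold enrichment the same peaks stood at percentiles 35.7, 36.8, 29.5 and 48.1 for Acan and 29.9, 28.0, 36.0 and 29.1 for Hapln1, below the median in each list. Fmod was at percentile 99.0 by length and 11.9 by fold enrichment in Utx-cKO, and at 61.5 and 9.13 in WT. Matn3 was low on both in WT, at 9.39 by length and 0.795 by fold enrichment. Among start-site peaks of 0.8 to 1.25 times its length, the Acan peak was at percentile 23.0 in Ezh2-cKO, 31.0 in Utx-cKO, 15.3 in Jmjd3-cKO and 35.1 in WT by fold enrichment, again under the median. The other start peaks of the group lay between percentiles 0.0355 and 20.7 by the same measure.

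**Figure D3:**
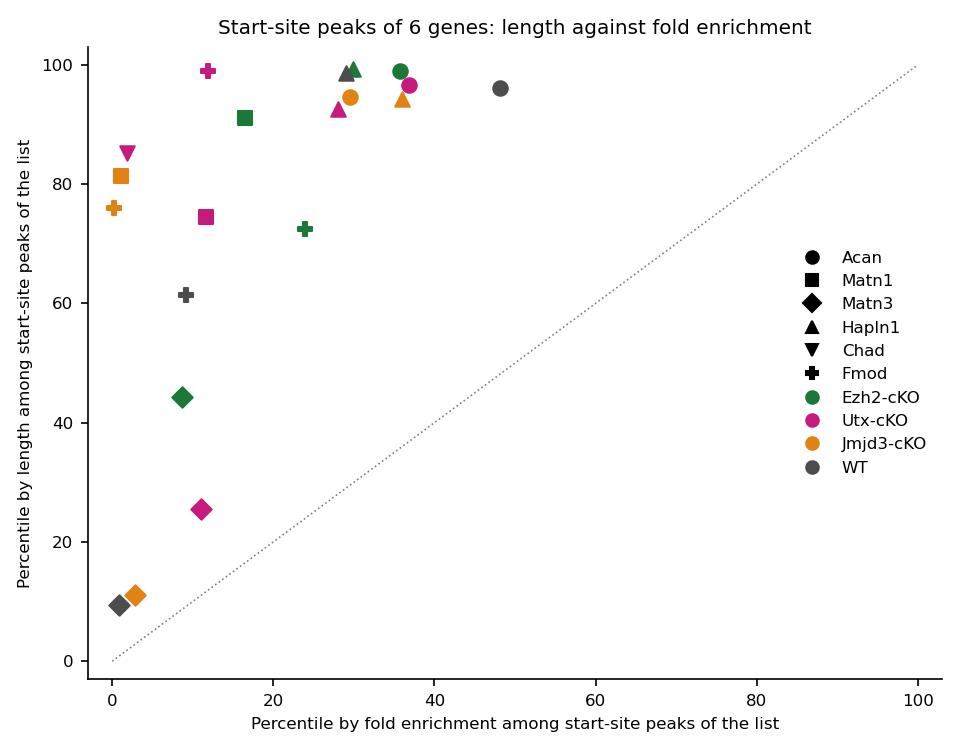
Percentile by length (y) against percentile by fold enrichment (x) of the peak over the annotated start. The reference is all start-site peaks of the same list, counted per start. Shape gives the gene and colour the list, and the dotted line marks equal percentiles. Every point lies above the line, and Acan and Hapln1 lie above percentile 90 by length in all 4 lists.

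The start peaks also reached further into the gene than before it. The downstream arm was the longer one in 5 of 5 start peaks of the group in Ezh2-cKO, 5 of 6 in Utx-cKO, 5 of 5 in Jmjd3-cKO and 4 of 4 in WT, Chad in Utx-cKO being the exception. Over all start-site peaks, again counted per start, the downstream arm was longer in 76.9%, 76.3%, 77.5% and 77.5%. A longer downstream arm was thus common to most starts that lay in a peak. The median start-site peak reached 1319 bp past the start in Ezh2-cKO, 1533 bp in Utx-cKO, 1264 bp in Jmjd3-cKO and 1276 bp in WT. Of all starts, 57.8% lay in a peak in Ezh2-cKO, 61.0% in Utx-cKO, 57.1% in Jmjd3-cKO and 55.6% in WT.

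**Figure D4:**
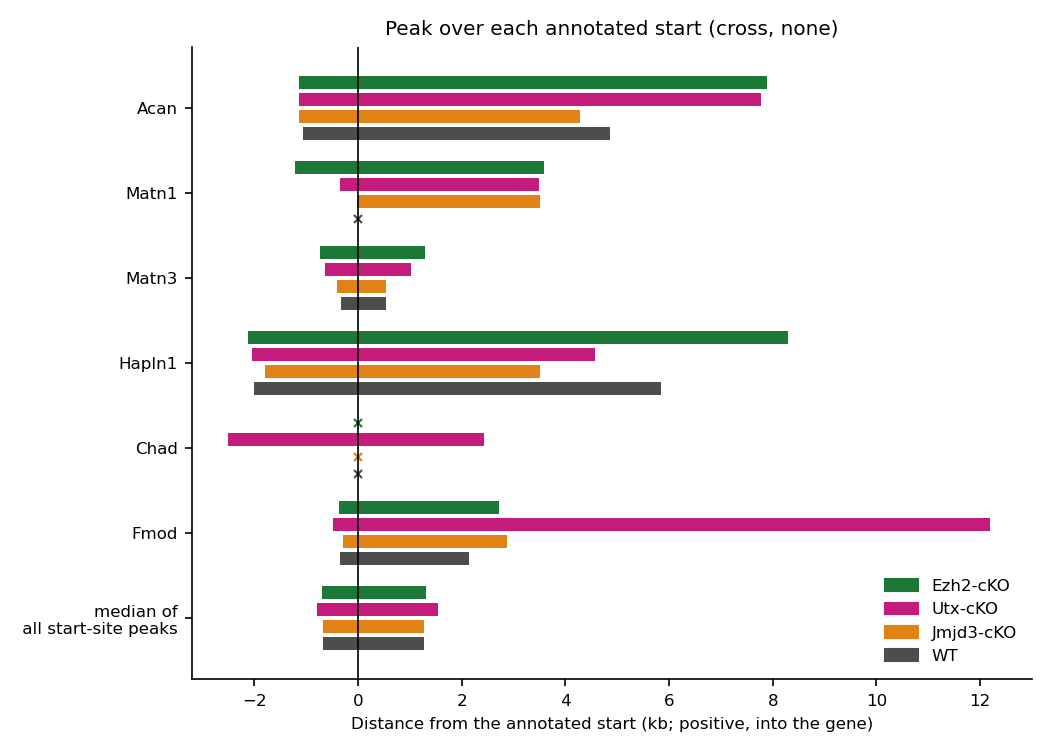
Extent of the peak over the annotated start of 6 genes in the 4 lists, in kb. Positive values run from the start into the gene. The median arms of all start-site peaks of each list, counted per start, are at the bottom. A cross marks a list with no peak over the start. Acan, Hapln1, Matn1 where its start is covered and, in Utx-cKO, Fmod reach over 3 kb past the start, with upstream edges close together among the lists at Acan, Hapln1 and Fmod.

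In Ezh2-cKO, 2 of the 8 genes, Chad and Fmod, had a covered share at least 10 points above WT and none had one 10 points below. Over all protein-coding genes 3.56% were higher by this measure and 0.324% lower. With equally long lists the counts were again 2 and 0, against 2.75% and 0.452% of all genes. The median difference over the 8 was 3.82 points, against 0 over all genes. Of the 18 WT peaks at the group, Ezh2-cKO peaks overlapped 13, against 80.7% of all WT peaks, and 9 of its 20 peaks at the group overlapped no WT peak, against 33.5% of all. A covered share lower by 10 points was thus seen at none of the 8 genes in Ezh2-cKO, but each list compares a library with its own input, and a change of the same proportion everywhere would not show in it.

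In Utx-cKO, 4 of the 8 genes, Comp, Chad, Fmod and Matn1, were at least 10 points above WT and none 10 points below, against 16.7% and 0.132% of all genes. These 4, which include the genes called in Ezh2-cKO, are the shortest of the 8. The same number of covered bases is a larger share of a shorter window, and the all-gene shares are over every gene length. Acan, not called with the full lists, had 17781 bp covered in Utx-cKO and 12887 bp in WT, while Matn1 had 6992 bp and 3451 bp. The median difference was 11.8 points for the 8 and 0.829 for all genes. With equally long lists 2 genes remained past 10 points, Comp and Fmod, and 0 were 10 points below, against 11.2% and 0.233% of all genes, and the median covered share of the 8 was 14.5% in Utx-cKO against 15.2% in WT, the reverse order. Of the 18 WT peaks 15 were overlapped in Utx-cKO, against 87.3% of all, and 6 of its 19 peaks overlapped no WT peak, against 52.2% of all.

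In Jmjd3-cKO, Chad alone was at least 10 points above WT and none was 10 points below, against 1.18% and 0.667% of all genes. With equally long lists the counts were again 1 and 0, against 1.20% and 0.658% of all genes. The median difference was 0.864 points for the 8 and 0 for all genes, with 4 genes above, 3 below and Prg4 at 0 in both. Of the 18 WT peaks 13 were overlapped, against 75.8% of all, and 6 of its 20 peaks lay outside WT peaks, against 22.0% of all. The 3 comparisons share the WT library, so their values are given beside each other and not compared as independent results.

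**Figure D5:**
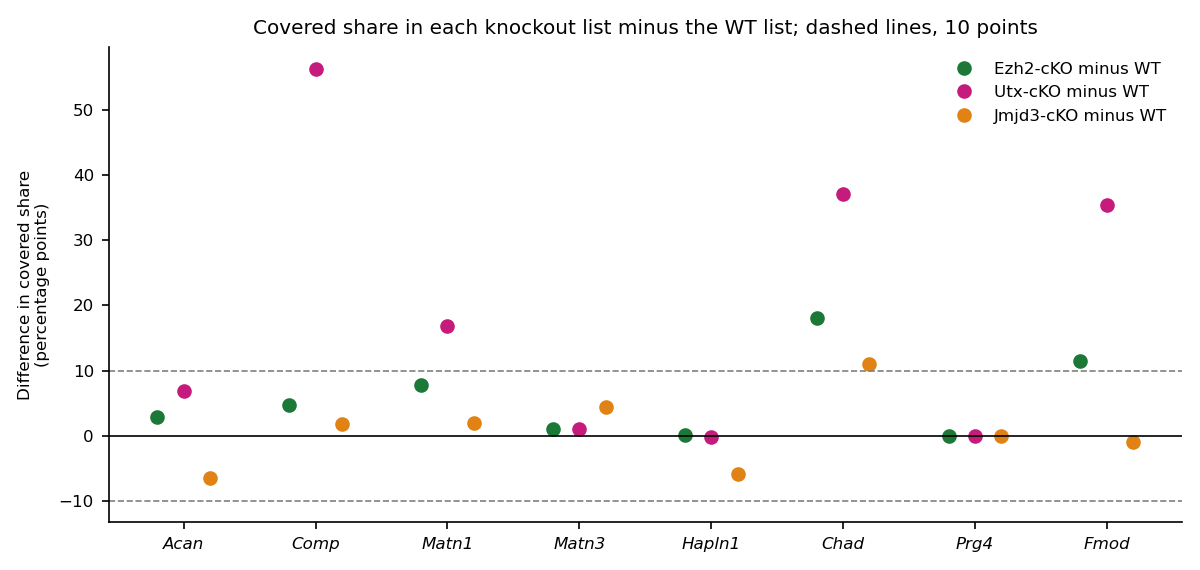
Covered share in each knockout list minus the WT list, in percentage points, for the 8 genes; dashed lines mark 10 points in either direction. Chad lies above 10 points in all 3 knockouts, Comp, Chad and Fmod have their highest values in Utx-cKO, and Acan and Hapln1 lie below 0 in Jmjd3-cKO.

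The related genes of the aggrecan system and of cartilage matrix were mostly covered as well. Of 50 such genes 47 had a peak in Ezh2-cKO, 49 in Utx-cKO, 49 in Jmjd3-cKO and 47 in WT, against 70.6%, 73.5%, 68.9% and 68.7% of all protein-coding genes. Their median covered share was 14.1% in Ezh2-cKO, 16.0% in Utx-cKO, 8.61% in Jmjd3-cKO and 8.31% in WT. In Ezh2-cKO 6 of them were at least 10 points above WT and 0 at least 10 points below, against 3.56% and 0.324% of all genes. These counts were 20 and 0 in Utx-cKO, against 16.7% and 0.132%, while Jmjd3-cKO had 0 above and 2 below, against 1.18% and 0.667%. The counts of related genes were not made with equally long lists. Genes whose peak differed between lists, besides Ncan, were Hapln3, a link protein gene next to Acan, with 0 in Ezh2-cKO, 8.43% in Utx-cKO, 2.30% in Jmjd3-cKO and 1.66% in WT, and Cytl1, which encodes a cytokine-like secreted protein of cartilage, with 0 in Ezh2-cKO, 2.32% in Utx-cKO, 4.43% in Jmjd3-cKO and 0 in WT.

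Among the 12 relatives of the lecticans, link proteins, matrilins and thrombospondins, the median covered share was 7.42% in Ezh2-cKO, 8.78% in Utx-cKO, 4.92% in Jmjd3-cKO and 4.66% in WT. Thbs1, a thrombospondin gene like Comp, was the most covered of them in WT, at 45.9% in Ezh2-cKO, 60.0% in Utx-cKO, 26.7% in Jmjd3-cKO and 35.0% in WT, and Ncan was the least in WT. The 11 small leucine-rich proteoglycan genes had medians of 13.5%, 16.4%, 8.98% and 13.4% in the same order. Prelp, which encodes a collagen-binding proteoglycan, was the most covered in WT, at 25.8% in Ezh2-cKO, 37.5% in Utx-cKO, 22.7% in Jmjd3-cKO and 23.1% in WT, and Kera the least. Of 10 other cartilage matrix genes Ucma was the most covered in WT, at 24.0% in Ezh2-cKO, 22.9% in Utx-cKO, 9.70% in Jmjd3-cKO and 25.3% in WT, and Cytl1 the least in WT.

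The 11 genes of aggrecan sulfation, chondroitin synthesis and cleavage had a peak in every list, as did 66.4% of all protein-coding genes. Papss2, which makes the sulfate donor, was the most covered in WT, at 17.5% in Ezh2-cKO, 17.9% in Utx-cKO, 18.6% in Jmjd3-cKO and 20.2% in WT. Chst3, a chondroitin sulfotransferase gene, was the least in WT, at 6.43%, 15.3%, 7.14% and 5.12%. The 6 cartilage collagen genes had a median of 25.2% in Ezh2-cKO, 31.8% in Utx-cKO, 9.92% in Jmjd3-cKO and 15.8% in WT, beside 19.4%, 28.9%, 13.4% and 15.2% for the 8 genes. Col2a1, the main collagen of cartilage, was the most covered of them in WT, at 70.7% in Ezh2-cKO, 77.2% in Utx-cKO, 43.6% in Jmjd3-cKO and 44.1% in WT, and Col9a2, a chain of collagen IX, the least in WT, at 14.7%, 15.2%, 7.12% and 5.03%.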

How the data were processed

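Broad peaks were called by the authors with MACS 2.1.2 in paired-end mode, each ChIP library against the input of its genotype and none pooled, at a q of 0.05, per the file headers. The submitters' processing notes also list FastQC 0.11.5, HOMER 4.10, deepTools 2.4.1, ChIPseeker and Bowtie2. No genome build is named in the sources used here. In the deposited lists pileup is a coverage signal, p and q are −log10 values against the input, fold enrichment is a ratio over the local input, and length is in bp. Pileup was not used here.

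The build was checked on the peaks: 11826 of 21263 GRCm38.p6 starts lay in a WT peak, against 710 and 736 when starts were moved by 20 kb either way. Presence, covered share and ranks were computed with Python 3.11.15, numpy 2.4.6 and pandas 2.3.3, and figures drawn with matplotlib 3.10.9. The genes and lists were chosen with earlier results of these data known. All 8 genes were named, and of the related lists the genes whose presence differed between lists, those with no peak, and the most and least covered in WT. The rank among peaks of like length and the shares of all genes with equally long lists were chosen after seeing the data. Alternatives were stricter peak thresholds, other windows, merged peaks, equally long lists, a 50% overlap and other call sizes.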

Additional observations from a re-analysis of the deposited data

How the results depend on the processing

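With 1 library per genotype no replicate could be left out. No paired analysis was possible because each genotype has 1 ChIP library. The count of genes with a peak stayed within 1.5 times its value under the alternatives run except in Jmjd3-cKO at fold enrichment of 4 or more, where it was 4 of 8. WT also had 4 of 8 there, and Ezh2-cKO and Utx-cKO had 6 each. The share of all genes with a peak at that fold enrichment was not counted, so whether these counts differ from it was not tested. At that threshold, whose scale differs between lists, the median covered share was 12.7% in Ezh2-cKO, 11.1% in Utx-cKO, 2.16% in Jmjd3-cKO and 2.08% in WT. At q of 0.001 or less it was 14.4% in Ezh2-cKO, 14.5% in Utx-cKO, 4.86% in Jmjd3-cKO and 11.3% in WT. With equally long lists it was 14.5% in Utx-cKO and 15.2% in WT. With peaks within 3 kb merged it was 21.1% in Jmjd3-cKO, against 16.4% in WT, the reverse of the order without merging, and with the gene span alone 15.3% in Jmjd3-cKO against 13.1% in WT. Window sizes of 0, 2 and 10 kb moved no median by over 1.5 times.

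Genes at least 10 points above WT numbered 0 in Ezh2-cKO at q of 0.001 or less, 1 with the gene span alone and 0 at a difference of 20 points. In Utx-cKO they were 2 with equally long lists. In Jmjd3-cKO they were 0 at q of 0.001 or less, at fold enrichment of 4 or more, with a window of 10 kb and at a difference of 20 points, and 2 with merged peaks. Genes below WT in Jmjd3-cKO were 2 at q of 0.001 or less, Matn1 and Fmod, and 2 at a difference of 5 points, Acan and Hapln1. Except with equally long lists, the shares of all genes past the call were not counted in these settings. Whether these counts are high or low was thus not tested. No difference of 10 points or more took the other sign. Smaller ones did, among them Matn1 in Jmjd3-cKO, at -16.4 points with q of 0.001 or less, and Acan in Ezh2-cKO, at -0.959 points with equally long lists. Of the differences by gene and alternative, 146 stayed on their side of the call and 22 did not. The 146 include those of Prg4, at 0 in every list and setting, and others never past 10 points, so they do not measure how stable the called differences were. Among the called differences, those of Comp and Fmod in Utx-cKO stayed past 10 points in every setting run. Each of the others fell under 10 points in some setting. The cause of these moves was not tested. Sequencing depth was not varied, and its part was not tested.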
